A study of Mus musculus with 2 samples.

Results

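Izumo1r and Gpr83 are neighbouring genes on mouse chromosome 9 that are both used as markers of regulatory T cells, a CD4 T cell lineage that holds immune responses in check under the control of the transcription factor Foxp3. They were chosen by name in the GENCODE M21 annotation, and comprise 2 of 55536 genes, with 8 annotated transcripts of 141862. Both genes and all 8 transcripts had values in each of the 2 libraries. The series held polyadenylated RNA from regulatory T cells, sequenced as technical replicates 1 and 2 of biological replicate 1, with no other group. The cells were primary cells from a male adult mouse aged 9 weeks of the strain Foxp3GFP-DTRCD4CreERT2R26tdTomato. That name joins GFP and diphtheria toxin receptor (DTR) to Foxp3, CreERT2 to CD4 and tdTomato to R26. It does not say where each element was inserted. Every cell thus came from an engineered background, and no unmodified control was analysed here. The labels gave the whole organism as the origin and did not state the organ, the sort, or any treatment of the mouse.

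Izumo1r encodes a small protein of the folate receptor family, held at the cell surface by a glycosylphosphatidylinositol (GPI) lipid anchor. It is known as folate receptor 4 on T cells, where it marks regulatory and anergic CD4 cells, and as Juno on the egg, where it is the receptor for the sperm protein Izumo1; it is not thought to carry folate. Gpr83 encodes a G protein-coupled receptor first found as a glucocorticoid-induced transcript of a thymoma line, is also expressed in brain, and has had neuropeptides such as PEN, a fragment of the Pcsk1n precursor, reported as ligands.

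The libraries held 20891069 and 18571065 expected counts in genes, and 12980 genes had at least 1 TPM (a level scaled for transcript length and library depth) in both. Cd3e, Cd3d, Cd4, Foxp3, Il2ra, Ctla4 and Ikzf2, the 7 markers listed for regulatory T cells, were all detected, meaning at least 1 TPM in both libraries, with means from 86.1 to 1239 TPM. Of the markers of other cells, 1 of 2 for CD8 T cells, 3 of 6 for B cells, 2 of 5 for natural killer cells, 2 of 6 for myeloid cells and 1 of 5 for stroma and epithelium were detected. Their summed levels were 23.4 to 26.2 TPM, 49.0 to 52.6 TPM, 18.7 to 19.6 TPM, 13.2 to 18.3 TPM and 1.73 to 3.74 TPM. The highest of each list were Cd8b1 at a mean of 24.1 TPM, Cd79b at 32.6 TPM, Gzmb at 13.4 TPM, Lyz2 at 8.66 TPM and Epcam at 2.02 TPM. Klra8, S100a8 and Cdh5 were at 0 counts in both libraries, and Cd8a, the other CD8 chain, had 0.685 TPM. The part of these cells in the levels of Izumo1r and Gpr83 was not tested. In bulk RNA, fewer cells of a type and less RNA per cell cannot be told apart.

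Gpr83 (ENSMUSG00000031932.14) lay on the plus strand of chromosome 9 from 14860210 to 14870789 (mm10). Izumo1r (ENSMUSG00000031933.17) lay on the minus strand from 14885814 to 14903949. The genes therefore faced each other tail to tail. Their 3′ ends were 15024 bases apart with 0 annotated genes between them, and their 5′ ends were 43739 bases apart. Of the 5 Izumo1r transcripts, only Izumo1r-202 and Izumo1r-203 extend past the end of Izumo1r-201 toward Gpr83. The last exon of the main transcript, Izumo1r-201, ended 29233 bases from the end of Gpr83.

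The sequences that set the transcripts apart are the junctions into the alternative exons, taken from the GENCODE M21 transcript sequences. Each is printed 5′ to 3′ with 15 bases of the upstream exon in lower case and 15 bases of the downstream exon in capitals. All but the Gpr83-203 run lie in annotated coding sequence, and each printed run occurred in 1 of the 8 transcripts. From the shared exon 4 of Izumo1r (14900733 to 14900871), transcripts 201 to 204 run into different versions of exon 5.
Izumo1r-201 exon 4 to exon 5 (14900023 to 14900624): gggactggagtgaggAGAAGAAACACTGCC
Izumo1r-202 exon 4 to exon 5 (14885814 to 14886344): gggactggagtgaggTCAAGGGTCTTCTAT
Izumo1r-203 exon 4 to exon 5 (14894036 to 14894122): gggactggagtgaggAAAATGGCACACCAT
Izumo1r-204 exon 4 to exon 5 (14900028 to 14900240): gggactggagtgaggGGTCCCCTCCATGCT
For Gpr83 the difference is a cassette exon of 126 bases, exon 2 of Gpr83-201 (14864772 to 14864897), which Gpr83-202 skips and which is printed whole below in capitals. Gpr83-203 starts within the intron before the next exon and keeps that intron's end, so its printed run shows intron in lower case and exon (14866849 to 14866982) in capitals.
Gpr83-202 exon 1 to exon 2, cassette skipped: acgcccttcactttgGTCATCATGCATCCA
Gpr83-201 exon 1 to exon 2, into the cassette: acgcccttcactttgGTCCGCTTTGTGAAC
Gpr83-201 exon 2 to exon 3, out of the cassette: gtggaccgccaccagGTCATCATGCATCCA
Gpr83-203 retained intron into exon 3: tcacgtgttttctagGTCATCATGCATCCA
Gpr83-201 exon 2: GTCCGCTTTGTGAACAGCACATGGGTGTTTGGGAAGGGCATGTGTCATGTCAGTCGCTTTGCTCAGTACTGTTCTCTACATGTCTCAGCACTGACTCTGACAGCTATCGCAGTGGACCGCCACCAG

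Izumo1r was among the most abundant transcripts of these cells. Its level was 806 TPM in the first and 769 TPM in the second technical replicate, a mean of 788 ± 26.6 TPM (SD, n = 2 technical libraries). These levels rested on 13624 and 10967 counts. By mean TPM it ranked 167 of 55536 genes and 135 of 22028 protein-coding genes. Its share of all gene counts was 0.0652% (95% exact binomial interval 0.0641% to 0.0663%) and 0.0591% (0.0580% to 0.0602%). These intervals account for counting error alone, because amplified reads need not be independent molecules.

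Gpr83 was expressed at a lower level, with values close together in the libraries. It had 128 and 131 TPM in technical replicates 1 and 2, a mean of 129.5 ± 1.62 TPM (SD, n = 2), from 5768 and 4963 counts. It ranked 1426 of all genes and 1299 of protein-coding genes. Its share of gene counts was 0.0276% (0.0269% to 0.0283%) and 0.0267% (0.0260% to 0.0275%). All counts of both genes were whole and had a posterior SD of 0, so the authors' quantifier divided none of these reads with another gene. Per length, Izumo1r had 6.28 and 5.88 times the TPM of Gpr83 in technical replicates 1 and 2. The count ratio was smaller, at 2.36 and 2.21, since the mean transcript length of Izumo1r was 0.385 times that of Gpr83.

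In a list of 24 genes used to identify regulatory T cells, all 24 were detected and the median level was 153 TPM. Izumo1r was second in the list by mean TPM and Gpr83 was 13th. The gene above Izumo1r was Il2rb, which encodes a signalling chain of the interleukin-2 receptor, at 972 and 939 TPM. Below it came Tnfrsf4 and Tnfrsf18, which encode the costimulatory receptors OX40 and GITR. Tnfrsf4 had 764 and 759 TPM and Tnfrsf18 had 619 and 716 TPM. The values of Izumo1r did not overlap those of Il2rb or Tnfrsf4, though its lower value was only just above the higher value of Tnfrsf4.

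Above Gpr83 in this order were Icos, a costimulatory receptor, at 202 and 203 TPM and Nt5e, which encodes the ectonucleotidase CD73, at 185 and 169 TPM. Below it were Lrrc32, which encodes GARP, the docking protein of latent transforming growth factor beta, at 87.8 and 157 TPM and the transcription factor gene Ikzf4 at 99.5 and 116 TPM. Gpr83 lay below both values of Nt5e and within the range of Lrrc32, so its place relative to Lrrc32 is not set by these data. Against Foxp3 itself, at 88.6 and 83.6 TPM, Izumo1r had 9.10 and 9.20 times the TPM and Gpr83 had 1.45 and 1.56 times.

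**Figure D1:**
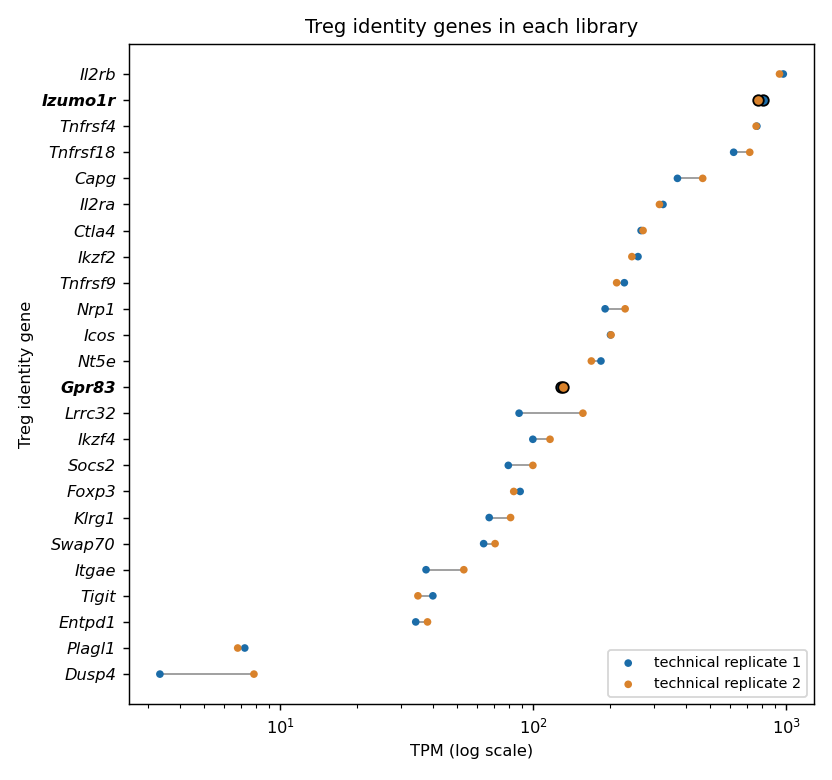
TPM (log scale) of 24 regulatory T cell identity genes, ordered by mean, with 1 point per technical library and a grey line between the libraries. Izumo1r is second at 806 and 769 TPM, and Gpr83, at 128 and 131 TPM, has points that nearly coincide, while those of Lrrc32 lie far apart.

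Among the protein-coding genes whose levels were nearest to Izumo1r, by distance in log2(TPM + 1) over the 2 libraries, were Eef2, Sp100, Cdk2ap2 and Cyba. Eef2, translation elongation factor 2, had 794 and 765 TPM, and Cyba, a subunit of the phagocyte NADPH oxidase, had 842 and 778 TPM. Nearest to Gpr83 were Slc35a4, Pdia4, Rtcb, Zfp638 and Slc39a7, with means between 128 and 130.4 TPM. With only 2 libraries of 1 sample, this likeness is one of level alone.

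Izumo1r RNA was mostly 1 transcript. Izumo1r-201, with 5 exons and an open reading frame of 244 codons, took 85.55% and 85.10% of the gene's TPM, at 690 and 654 TPM. The other 4 transcripts together took 14.45% and 14.90%. Izumo1r-202 had 57.6 and 54.3 TPM (7.14% and 7.06%), and its last intron of 14388 bases carried it to a distal exon nearer Gpr83. Izumo1r-203, the other transcript with distal exons, had 16.7 and 15.3 TPM (2.07% and 1.98%). Summed, these distal forms made up 9.21% and 9.04% of the gene.

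The transcripts 201 to 204 shared the coding part of exons 2 to 4, 466 bases or 155 whole codons, and differed in what follows it. Izumo1r-201 added 266 coding bases in its own exon 5. Transcripts 202 and 203 had reading frames of 172 and 173 codons. Izumo1r-204 entered the last exon of Izumo1r-201 at a point 384 bases further in, giving 190 codons, and had 25.6 and 22.9 TPM (3.17% and 2.98%). Izumo1r-205, at 16.7 and 22.2 TPM (2.07% and 2.88%), is annotated without the end of its coding sequence at 143 codons. The part of a GPI-anchored protein that directs attachment of the anchor lies at its C-terminus, the part in which these reading frames differ. Of the Izumo1r and Gpr83 transcripts, only Izumo1r-201 had deposited 95% credibility bounds that did not overlap between the libraries. They were 609 to 633 and 565 to 591 on the posterior mean TPM scale. Izumo1r-201 also had the most counts of these transcripts, 12098 and 9724. The share of all transcripts without overlap was not computed.

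By the deposited estimates, most Gpr83 RNA was assigned to Gpr83-202, the annotated transcript without the cassette exon. Gpr83-202 had 79.4 and 83.6 TPM, which is 61.84% and 63.99% of the gene. Gpr83-201, which includes the exon, had 40 and 36.8 TPM (31.16% and 28.16%). Gpr83-202 thus had 1.98 and 2.27 times the TPM of Gpr83-201. Of the TPM assigned to these spliced coding transcripts, Gpr83-201 had 33.5% and 30.6%. The noncoding Gpr83-203, annotated as a retained intron, had 8.98 and 10.3 TPM (7.00% and 7.84%).

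The cassette exon holds a whole number of codons. It covers codons 130 to 171 of the 423 codons of Gpr83-201 and holds 0 in-frame stop codons, so that skipping it leaves the frame intact with 381 codons. The exon therefore accounts for all 42 codons by which the reading frames differ. The transcripts also differ at their ends: Gpr83-201 starts 44 bases further upstream and runs 479 bases further at its 3′ end. The deposited shares were estimated over whole transcripts, so how far they rest on the cassette exon or on these ends cannot be told apart in these tables. Posterior bounds of all 3 Gpr83 transcripts overlapped between the libraries. For Gpr83-201 they were 31.6 to 39.9 and 29.1 to 36.7 on the posterior mean TPM scale.

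**Figure D2:**
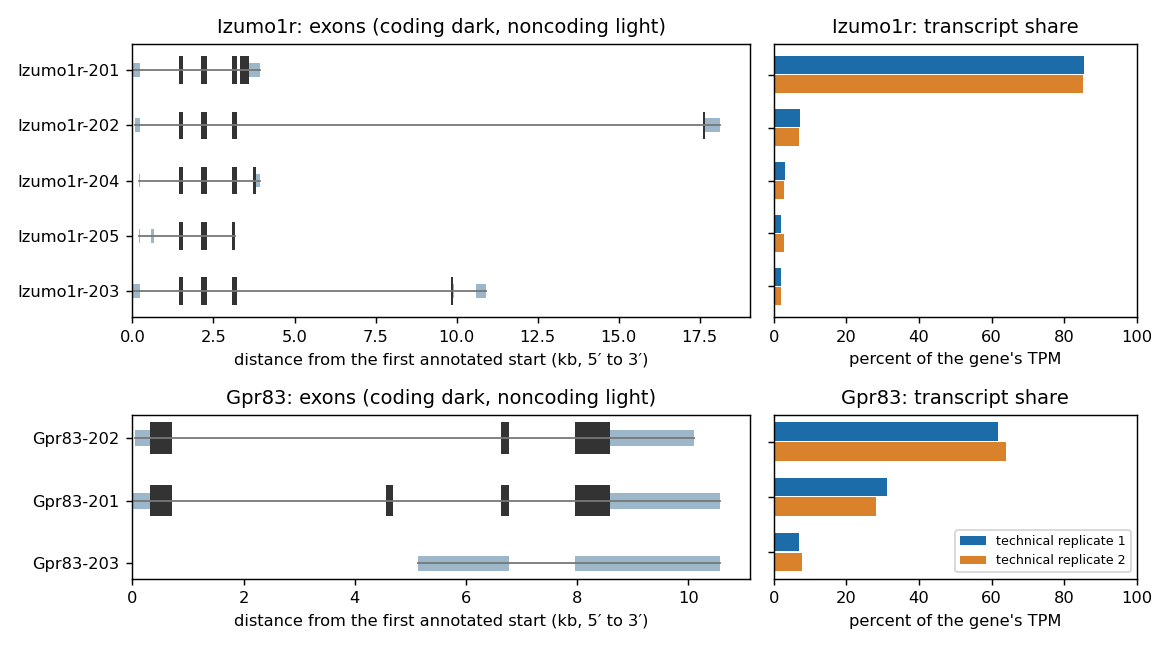
Left, exons of each annotated transcript by distance in kb from the first annotated start of its gene, with coding exons dark and noncoding exons light; right, the percent of the gene's TPM given to each transcript, 1 bar per technical library. Izumo1r-201 takes 85.55% and 85.10%, and Gpr83-202, which lacks the second coding exon of Gpr83-201, takes 61.84% and 63.99%.

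The comparison between libraries asked whether either gene differed between technical replicates beyond counting error. Each gene was tested with a two-sided exact binomial test on its counts, scaled by TMM (an edgeR scaling that sets most genes level), with Benjamini-Hochberg adjustment over 16553 genes. Izumo1r was slightly lower in technical replicate 2, with a log2 ratio of -0.079 ± 0.019 (counting SE, adjusted p = 9.36e-05). Gpr83 did not pass the test, with a log2 ratio of 0.017 ± 0.028 (exact binomial test, adjusted p = 0.719). By this test 34.7% of all genes were called, 21.6% higher and 13.0% lower in technical replicate 2, so a call is common here. Scaling by total gene counts gave 3088 higher and 3356 lower calls where TMM gave 3581 and 2155, and moved the median log2 ratio of all genes from 0.018 to -0.046. By that scaling 38.9% of genes were called, 18.7% higher and 20.3% lower.

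The size of the Izumo1r difference was small beside that of other well-counted genes. Among the 4412 genes that averaged 1000 counts or more, the median absolute log2 ratio was 0.12, and 64.4% had a larger one than Izumo1r. With an assumed biological dispersion of 0.04 in edgeR's exact test, 0.707% of genes were called and neither Izumo1r (unadjusted p = 0.847, adjusted p = 1) nor Gpr83 (unadjusted p = 0.968, adjusted p = 1) was among them. Of the other genes given below with a log2 ratio, none passed that test either (adjusted p of at least 0.742). The dispersion was assumed rather than estimated, and a biological spread does not describe technical libraries. Not passing therefore does not show that the libraries were alike. Every p-value here, other than those with the assumed dispersion, measures only the counting error between 2 technical libraries. The labels do not say whether these libraries began from separate RNA.

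The ratio of the genes to each other does not depend on the scaling. Counts of Izumo1r per count of Gpr83 were 2.36 in technical replicate 1 and lower, at 2.21, in the other, a log2 difference of -0.096 (95% interval -0.16 to -0.030, Fisher's exact test, two-sided p = 0.00424).

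**Figure D3:**
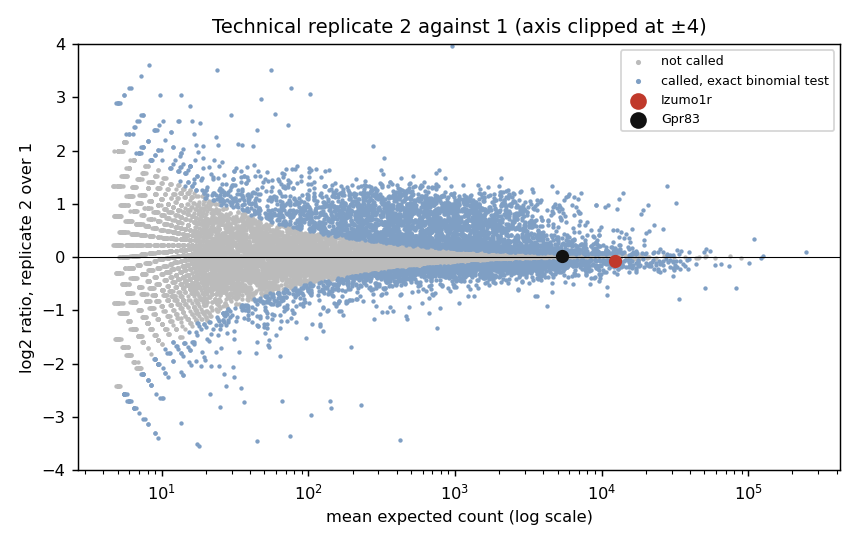
Log2 ratio of technical replicate 2 over 1 against mean expected count (log scale) for the genes tested, with genes called by the exact binomial test in blue and others in grey. Izumo1r lies just below 0 at -0.079 and Gpr83 at 0.017, near the middle of the spread of genes of like count.

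The authors also deposited whole-number counts on an older annotation (GENCODE M4), and these gave another picture of both genes. They held 2021 and 1990 counts for Izumo1r and 1739 and 1626 for Gpr83. Izumo1r thus had 14.8% and 18.1% of its newer count, and Gpr83 had 30.1% and 32.8%. The median over 9031 genes with at least 100 newer counts in each library was 44.9% and 47.7%. The older counts of Izumo1r per count of Gpr83 were 1.16 and 1.22, against 2.36 and 2.21 in the newer tables. The difference of the older ratios between the libraries did not pass the test, with a log2 value of 0.075 (95% interval -0.058 to 0.21, Fisher's exact test, p = 0.272).

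The older share was lower in genes of high level. Its median was 49.9% and 52.0% in 5674 genes with a mean of 10 to 100 TPM, 31.8% and 34.5% in 1514 genes of 100 to 500 TPM, and 5.23% and 6.33% in 241 genes of 500 TPM or more. Izumo1r was thus above the median share of genes of 500 TPM or more, and Gpr83 was slightly below that of genes of 100 to 500 TPM. The share also fell with level inside these groups, with rank correlations of -0.60 and -0.47 in the first and -0.44 and -0.39 in the second. Gpr83, at a mean of 129.5 TPM, lay near the lower end of its group, so these medians are not those of genes of equal level. Foxp3 kept 59.4% and 63.1%, Tnfrsf4 16.4% and 19.0%, and Il2rb 8.0% and 9.72%. Per base of mean transcript length, the older count of Izumo1r was 1.62 and 1.60, and no gene of the 9031 was above 2.89 and 3.25. The median over those genes was 0.185 and 0.183 and the 99th percentile was 1.600 and 1.527. Izumo1r was thus above the 99th percentile in both libraries. The tool that made the older counts is not given in the sources used here, and the cause of the lower share was not tested.

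On the older counts Izumo1r had the opposite sign between libraries, with a log2 ratio of 0.091 ± 0.046 that did not pass the exact binomial test (adjusted p = 0.135), and Gpr83 had 0.016 ± 0.050 (adjusted p = 0.882). There, 27.1% of 11507 genes were called, 19.3% higher and 7.75% lower in technical replicate 2. The lower level of Izumo1r in technical replicate 2 therefore holds for the newer tables and not for the older ones.

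**Figure D4:**
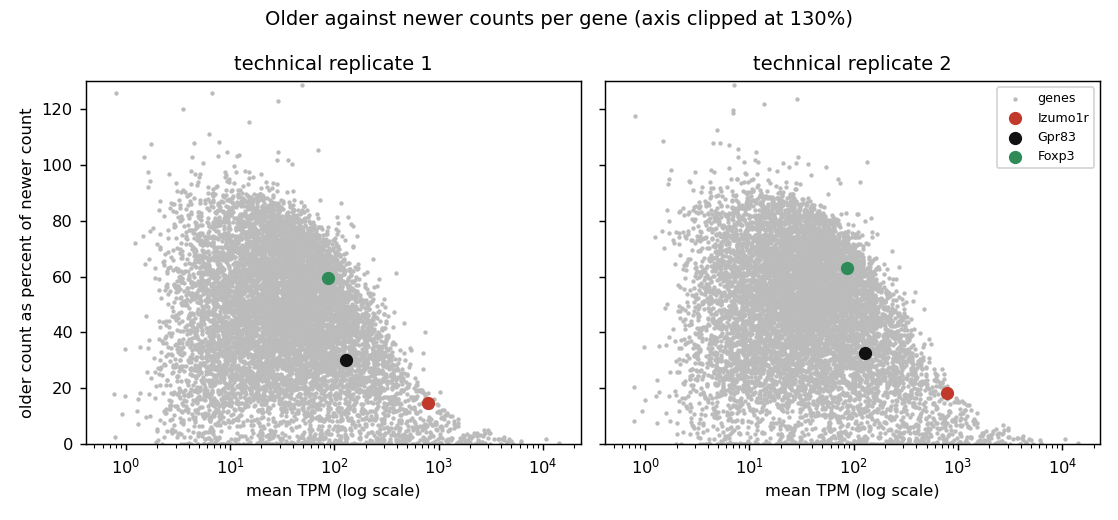
Older count as a percent of the newer count against mean TPM (log scale), 1 grey point per gene and 1 panel per technical library. The share falls toward high TPM, and Izumo1r at 14.8% and 18.1% lies above the 5.23% and 6.33% medians of genes of 500 TPM or more, and below Gpr83 at 30.1% and 32.8% and Foxp3 at 59.4% and 63.1%.

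Of the folate receptor family, only Izumo1r was detected. Folr1 had 1 and 0 counts, Folr2 had 0 and 0.97, and Rtbdn, a retinal member, had 2 and 0. All were under 3 counts and under the 1 TPM set for detection. Folate supply and use were represented by other genes: 20 of 22 genes of folate transport and one-carbon metabolism were detected, and the median was 24.9 TPM. Slc19a1, the reduced folate carrier, had 55.4 and 54.6 TPM, while Slc46a1, the proton-coupled folate transporter, had 1.45 and 1.00 TPM. The highest of this list were the purine synthesis gene Gart, the folate enzyme gene Mthfs and the mitochondrial enzyme gene Shmt2, with means from 81.9 to 123 TPM. Between the libraries 3 of 21 tested genes of the list were higher and 1 was lower in technical replicate 2, where 21.6% and 13.0% of all genes were. With total gene counts the split was 2 higher and 5 lower, against 18.7% and 20.3% of all genes.

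Of 10 genes of sperm-egg fusion, 5 were detected. Izumo1, the sperm partner of the protein that Izumo1r encodes, had 0 counts in both libraries, where 3 counts would be 0.114 and 0.135 TPM. Izumo2, Izumo3, Tmem95 and 4930451I11Rik also had 0 counts. Izumo4, in contrast, had 152 and 148 TPM, a level near that of Gpr83. The egg tetraspanin gene Cd9 had 117 and 97.0 TPM and its relative Cd81 had 160 and 161 TPM, and both are broadly expressed in lymphocytes. Tmem81 had 12.2 and 12.5 TPM and Spaca6 had 2.89 and 5.53 TPM. Cd9 was lower in technical replicate 2 (log2 ratio -0.28 ± 0.051, exact binomial test, adjusted p = 1.83e-07) and Spaca6 was higher (1.01 ± 0.38, adjusted p = 0.0285). On the older counts neither passed, with -0.17 ± 0.076 for Cd9 (exact binomial test, adjusted p = 0.0827) and 0.11 ± 0.87 for Spaca6, which had 5 older counts in each library (adjusted p = 1).

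Among 15 markers of the oocyte, the cell best known for Izumo1r outside the T cell lineage, 1 was detected. This was Tle6 at 1.87 and 1.23 TPM. Zp2 and Bmp15 had 0 counts in both libraries, and the summed level of the 15 markers was 3.35 and 2.20 TPM, against 806 and 769 TPM for Izumo1r.

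The machinery that makes and attaches GPI anchors was present. All 24 synthesis genes found in the annotation were detected, and the median was 28.8 TPM and a highest mean of 109 TPM for Pigs, a subunit of the transamidase that joins the anchor to the protein. Pigx had 73.4 and 135 TPM and Gpaa1 had 77.6 and 93.8 TPM, and 9 of the 24 were higher and 2 lower in technical replicate 2, against 21.6% and 13.0% of all genes. With total gene counts, 8 were higher and 6 lower, against 18.7% and 20.3% of all genes. On the older counts 4 were higher and 2 lower, against 19.3% and 7.75%. Of 17 genes of GPI-anchored surface proteins, 15 were detected. Izumo1r was the third of these by mean TPM, after Ly6e at 3665 and 3705 TPM and Cd52 at 2532 and 2457 TPM. In that list 6 of 15 tested genes, Izumo1r, Cd52 and Nt5e among them, were lower in technical replicate 2 and 0 were higher, against 13.0% and 21.6% of all genes. With total gene counts 10 were lower, against 20.3% of all genes. On the older counts 1 of 14 was lower, near the 7.75% of all genes. There Cd52 had a log2 ratio of 0.11 ± 0.088 and, like Izumo1r and Nt5e, did not pass the exact binomial test (adjusted p = 0.431).

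Izumo1r and Nt5e are together used to mark anergic CD4 T cells. Of a list of 13 anergy-associated genes 12 were detected, and the median was 98.5 TPM. Izumo1r was the highest, followed by Dgka, a diacylglycerol kinase that dampens receptor signalling, at 627 and 602 TPM and by Nt5e. Izumo1r had 4.36 and 4.54 times the TPM of Nt5e. Nt5e was also lower in technical replicate 2, with a log2 ratio of -0.15 ± 0.022 (exact binomial test, adjusted p = 2.7e-10), but not on the older counts (-0.052 ± 0.043, adjusted p = 0.424). In the list, 3 of 13 genes were higher and 6 lower, against 21.6% and 13.0% of all genes. On the older counts 1 was higher and 2 lower, against 19.3% and 7.75%.

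Gpr83 had the highest mean of 17 receptors listed as orphan or formerly orphan G protein-coupled receptors, of which 15 were detected with a median of 28.3 TPM over the list. Next were Gpr18 at 104 and 88.7 TPM and the oxysterol receptor gene Gpr183 at 96.4 and 87.9 TPM. In both libraries Gpr83 was above each of them. Of the 15 tested, 3 were higher and 6, Gpr18 and Gpr183 among them, were lower in technical replicate 2, against 21.6% and 13.0% of all genes. On the older counts 3 were higher and 1 lower, against 19.3% and 7.75% of all genes. There Gpr18 (-0.12 ± 0.064, exact binomial test, adjusted p = 0.168) and Gpr183 (-0.053 ± 0.056, adjusted p = 0.561) did not pass. Of 18 neuropeptide receptors, 1 was detected, Vipr1, at 6.67 and 4.39 TPM, and 10 had 0 counts.

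Of 7 genes listed for the reported ligands of Gpr83 and their processing, 5 were found in the annotation by symbol, and 4 of these were not detected. Fam237a and Fam237b, which encode other reported ligands, were not matched and were not analysed here. Pcsk1n, the precursor of PEN, had 0 counts in both libraries, where 3 counts would be 0.0991 and 0.117 TPM. The precursor-processing genes Pcsk1, Pcsk2 and Cpe had means of 0.17, 0.01 and 0.63 TPM. The exception was Gpr171, a receptor for another peptide of the same precursor, at 39.8 and 35.1 TPM. It was lower in technical replicate 2 with a log2 ratio of -0.19 ± 0.063 (exact binomial test, adjusted p = 0.00985), and on the older counts it had -0.20 ± 0.086 and did not pass (adjusted p = 0.067). Of 22 genes of G protein signalling, 20 were detected, with the inhibitory alpha subunit gene Gnai2 at 146 and 314 TPM, the calcium channel gene Itpr2 at 192 and 223 TPM and Gnai3 at 175 and 169 TPM. In that list 10 of 21 tested genes were higher and 2 were lower, against 21.6% and 13.0% of all genes. With total gene counts the split was 9 and 4, against 18.7% and 20.3% of all genes. On the older counts 8 of 20 were higher and 0 lower, against 19.3% and 7.75%.

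Of 12 genes of glucocorticoid response, the stimulus through which Gpr83 was first found, 10 were detected. Nr3c1, the glucocorticoid receptor, had 54.0 and 75.6 TPM, and Hsd11b1, an enzyme that reactivates glucocorticoids, had 128 and 128 TPM. Tsc22d3, a widely used glucocorticoid target also known as GILZ, had 528 and 323 TPM and was lower in technical replicate 2 by a log2 ratio of -0.71 ± 0.021 (exact binomial test, adjusted p = 1.73e-272). On the older counts, 855 and 730, its log2 ratio was -0.11 ± 0.073 and did not pass (adjusted p = 0.273). Ddit4, another target, had 79.2 and 60.7 TPM and was also lower, at -0.39 ± 0.053. Others of the list did not all go this way. Per1 was lower (11.9 and 10.7 TPM), Dusp1 was higher (14.9 and 23.0 TPM), and Fkbp5 and Sgk1 did not pass. Nr3c1 was higher, at 0.32 ± 0.040, and Gpr83 stood at 0.017 ± 0.028 in the same fit. On the older counts Ddit4 (-0.52 ± 0.094, adjusted p = 2.87e-07) and Nr3c1 (0.27 ± 0.059, adjusted p = 3.92e-05) passed the exact binomial test in the same directions. In all, 3 of the 12 were higher and 3 lower, against 21.6% and 13.0% of all genes.

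On chromosome 9, Izumo1r had the highest level and Gpr83 the third among the protein-coding genes within 500 kb. That window held 50 other annotated genes, of which 13 (26%) were detected. Of the 16 other protein-coding genes 9 were detected, and the median was 11.7 TPM. The highest was Cwc15, a splicing factor gene, at 169 and 158 TPM, which is above Gpr83 and below Izumo1r.

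The nearest protein-coding genes beyond Gpr83 were Mre11a, a DNA repair nuclease gene, at 37.5 and 36.9 TPM and Ankrd49 at 28.7 and 21.9 TPM. These overlap each other at their starts, and their expected counts were not whole. Beyond them 1700012B09Rik had 0 counts and Fut4 had 0.07 and 0.15 TPM. On the Izumo1r side the nearest was Panx1, a membrane channel gene, at 17.9 and 24.01 TPM. Hephl1 had 0 counts, Vstm5 had 1 and 0 counts, and Med17, a subunit of Mediator, had 42.5 and 69.7 TPM. The order of levels across the region was therefore uneven, with genes at or near 0 on both sides of the pair.

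**Figure D5:**
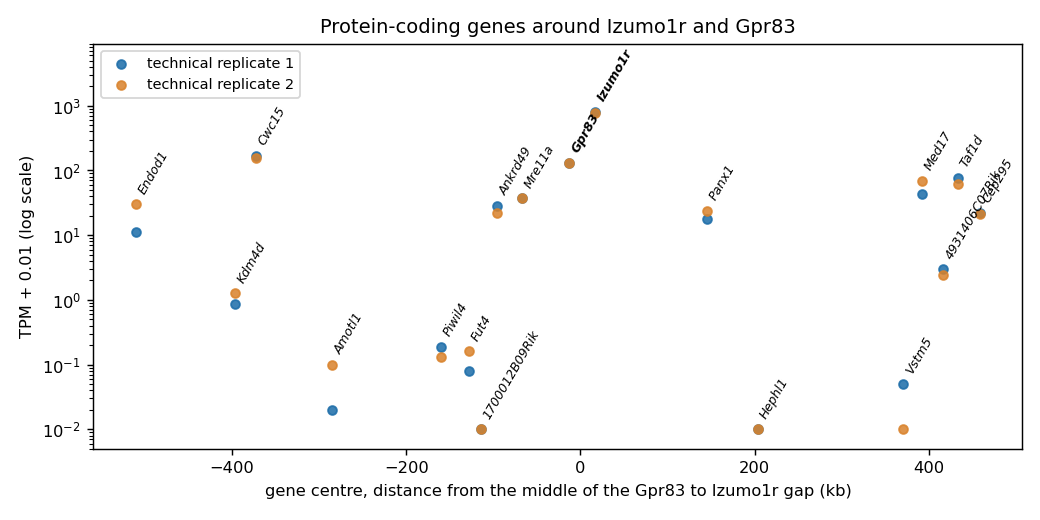
TPM + 0.01 (log scale) of protein-coding genes by distance in kb of the gene's centre from the middle of the gap between Gpr83 and Izumo1r, 1 point per technical library. Izumo1r and Gpr83 stand at the centre at 806 and 769 TPM and at 128 and 131 TPM, with Hephl1 and 1700012B09Rik at 0 counts to either side.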

How the data were processed

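The members and gene lists were chosen with earlier results of these data known. The authors deposited, per the file headers and the text descriptions beside them, expected counts, TPM, FPKM, posterior mean TPM (a signal value) and its 95% credibility limits, and the percent of each gene's TPM per transcript, all on mm10 with GENCODE M21. They also deposited whole-number counts on GENCODE M4. Aligner, quantifier, counter and strandedness are not given in the sources used here. FPKM values deposited by the authors were not used in any comparison. Rows naming no gene (0.307% and 0.242% of counts) were left out.

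Expected counts were rounded and compared by a two-sided exact binomial test in genes with at least 10 counts over both libraries. Library sizes were scaled with TMM (edgeR 4.0.16, factors 1.02 and 0.978), and p-values were Benjamini-Hochberg adjusted at 0.05. Log2 ratios had 0.5 added to each count. The edgeR quasi-likelihood test could not be fitted, since 1 group of 2 technical libraries was compared within itself. At these depths 3 counts of Izumo1r were 0.178 and 0.210 TPM, and 3 counts of Gpr83 were 0.0668 and 0.0790 TPM. Named genes were the members and their transcripts, all members of the folate receptor, fusion and ligand lists, the 3 highest of the other lists, the 4 nearest protein-coding genes on each side, 5 genes of nearest level and 2 neighbours in the identity order. Of the genes the rule named, 1 is not reported here. Cwc15 and some further list members were named after their values were seen. Python 3.11.15, scipy 1.17.1, R 4.3.3 and DESeq2 1.42.0 (size factors, as an alternative) were used.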

Additional observations from a re-analysis of the deposited data

How the results depend on the processing

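Of 71 alternative values, 55 were unmoved. For tested values this meant the same direction and side of the threshold. For levels and shares it meant a move of less than 1 SD, and for counts of genes, staying within 1.5 times the count reported. With 2 libraries, leaving 1 out always moves a mean by less than its SD, so those levels and shares were unmoved by construction. For Izumo1r between libraries, DESeq2 size factors, total gene counts, posterior mean counts and no filter beyond 1 count kept it lower in technical replicate 2 (log2 ratio -0.14 to -0.079). The older counts reversed it (0.091, adjusted p = 0.135), and edgeR's exact test with an assumed dispersion of 0.04 left it at -0.079 with an adjusted p of 1. Gpr83, which passed no threshold, changed sign with DESeq2 size factors (-0.018) and total gene counts (-0.047). The log2 ratio of Izumo1r to Gpr83 reversed on the older counts (0.075). Genes called higher numbered 3581, against 2224 on the older counts and 58 with the assumed dispersion; genes called lower numbered 2155, against 3356 with total gene counts, 892 on the older counts and 59 with the assumed dispersion. Mean levels moved beyond their SD to 704 (Izumo1r) and 116 (Gpr83) as posterior mean TPM, and to 921 and 151 TPM rescaled to protein-coding genes. Without 1 replicate, levels ranged from 769 to 806 TPM for Izumo1r and from 128 to 131 TPM for Gpr83. At a threshold of 5 TPM in both libraries, 0 oocyte markers and 0 neuropeptide receptors were detected. Except as given, the cause was not tested. No paired analysis was possible because there was 1 group.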
